A study of Rattus norvegicus with 8 samples.

Results

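The genes described here encode proteins that shape the membrane of the endoplasmic reticulum. They were chosen by name: every probe set whose symbol in the platform's gene table is Arl6ip5, Arl6ip1, Rtn4, Rtn3, Rtn2, Atl2, Atl3 or Reep5. All 8 genes were on the array, with 16 probe sets of 31042, and all 16 were among the upper 60% by mean signal that were kept for the tests. The names were put together with results of the hyperthyroid against control comparison already known, among them the lower signal of Arl6ip5. Their differences between the groups are therefore given as a description, with standard errors. Counts of members past a limma threshold are printed beside the count over all probe sets, describe these arrays and are no evidence for the members.

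The endoplasmic reticulum is a continuous system of sheets and tubules that folds membrane and secreted proteins, makes lipids and stores calcium. In striated muscle much of it is specialised as the sarcoplasmic reticulum, which wraps the myofibrils and releases calcium for contraction. Reticulons and Reep proteins insert hairpins into the membrane and bend it into tubules, and atlastins are GTPases that fuse tubules where they meet. Several of these genes, among them Arl6ip1, Rtn2 and Atl3, are mutated in inherited diseases of long axons.

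RNA of extraocular muscles, which move the eye, was measured in 8 adult Sprague-Dawley rats with an initial body weight of 200 ± 40 g, 1 array per rat. The 4 hyperthyroid rats had intraperitoneal T3 (triiodothyronine, the active thyroid hormone) at 25 µg per 100 g of body weight every other day for 6 weeks, and tissue was taken 24 hours after the last dose. The 4 control rats were untreated, and a sham injection is not mentioned in the sources used here. The comparison addresses how a chronic excess of thyroid hormone changes gene expression in these muscles. Arrays are named by group and title number: hyperthyroid 1, 2, 3 and 5, and control 7, 8, 9 and 11.

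Array hyperthyroid 5 did not carry the myosin that marks its labelled tissue. The extraocular myosin Myh13 had a signal of 4.17 on it and 5430 to 9340 on the other 7 arrays, while the homeobox gene Hoxa10 stood at 399 against at most 27.8. Its summed signal of 5 slow fibre markers was 45705, against 7507 to 19186 elsewhere. On Myh8 it read 54.2 against 7599 to 12343, on Myh3 165 against 6412 to 15954, and on Myh6 35.4 against 151 to 427. The other genes of this list of 8 extraocular fibre markers were not lower. Myh4 read 24307 against 16681 to 25104, Ckm 26322 against 18812 to 28035, and Acta1 33901 against 22135 to 39535. Actn3 read 23834 against 5968 to 16552. The list summed to 108623 on hyperthyroid 5, inside the 93000 to 141671 of the other arrays. Its adipocyte markers summed to 11757, against 964 to 3925 elsewhere, and its leukocyte markers to 3977, against 1126 to 2104. Whether the array labelled hyperthyroid 5 holds another muscle was not tested. The members' differences are therefore given with and without this array. The 7 measured markers of oligodendrocytes and astrocytes summed to 2682 on hyperthyroid 2 and 1643 on hyperthyroid 5, against 9411 to 18808 on the rest. The signal ratio of the 3′ to the 5′ control probe set of Gapdh, which grows as RNA gets shorter, ran from 1.67 to 1.97 on controls. It was 3.91, 4.40, 2.18 and 1.44 on hyperthyroid 1, 2, 3 and 5. Group means were 2.98 ± 1.40 and 1.77 ± 0.136 (SD, n = 4 each), with a two-sided exact permutation p of 0.229, where 0.0286 is the smallest p that 4 against 4 arrays allow. Summed epithelial markers (the 4 genes Epcam, Krt8, Krt18 and Krt19) were 13.2 to 190 on hyperthyroid and 220 to 706 on control arrays, with 2 of the 4 above the filter. The 3 measured endothelial markers summed to 1018 to 1137 on hyperthyroid 1, 2 and 3 and to 851 on hyperthyroid 5, against 697 to 887 on controls. One of them, Kdr, read 398 to 659 on hyperthyroid and 327 to 378 on control arrays. The others overlapped between the groups: Pecam1 read 171 to 238 on hyperthyroid and 154 to 196 on control arrays, and Vwf 215 to 381 and 179 to 398. The part of these cell types in the values below was not tested. In whole muscle, fewer cells of a type and less RNA per cell cannot be told apart.

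Across the members, lower signals in hyperthyroid muscle were found for Arl6ip5 on both of its probe sets and for Atl2 on 1 of its 2. On 1 probe set each of Rtn4 and Rtn2, hyperthyroid 1, 2 and 3 were below every control while hyperthyroid 5 was above. Arl6ip1, Rtn3 and Reep5 had probe sets whose groups overlapped. The brightest probe set of Atl3 pointed upward in all 21 alternative settings, though those with another filter or eBayes setting cannot change a log2 difference. Of the 16 probe sets, 12 had a log2 difference below 0 and 4 above it, with a median of -0.23, where the median over all 18625 probe sets tested was 0.03 and 47.5% of them lay below 0. Without hyperthyroid 5 the members' count was 14 below and 2 above 0, with a median of -0.30, against 45.8% below 0 over all. With the Gapdh ratio as a covariate in the fit, 9 of the 16 lay below 0, both on all 8 arrays and without hyperthyroid 5. The groups did not overlap on 3 probe sets, each lower in hyperthyroid arrays, beside 3.23% of all probe sets, and on 0 that were higher, beside 4.33%. Without hyperthyroid 5 these counts were 5, beside 6.51%, and 0, beside 8.28%. These shares are the background against which the members' counts are read. At an adjusted p under 0.05 limma called 0 probe sets on all 8 arrays (0%), with 2151 at an unadjusted p under 0.05 (11.5%), of which 1164 were higher (6.25%) and 987 lower (5.3%). Under median centring, which moved the median of all probe sets by -0.12, 567 were higher and 1623 lower. In the values as deposited, members made up 4 of those lower and 0 of those higher. With the Gapdh ratio as a covariate on all 8 arrays, members made up 3 of 1344 lower and 2 of 1113 higher. Without hyperthyroid 5 limma called 29 probe sets at an adjusted p under 0.05 (0.156%). Of these, 4 were member probe sets, of Arl6ip5, Rtn4 and Atl2, and since the genes were named with results known this is a description. At an unadjusted p that fit had 2840 (15.2%), with 5 members among the 1427 lower (7.66%) and 0 among the 1413 higher (7.59%), and median centring turned that split to 2775 lower and 530 higher.

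**Figure D1:**
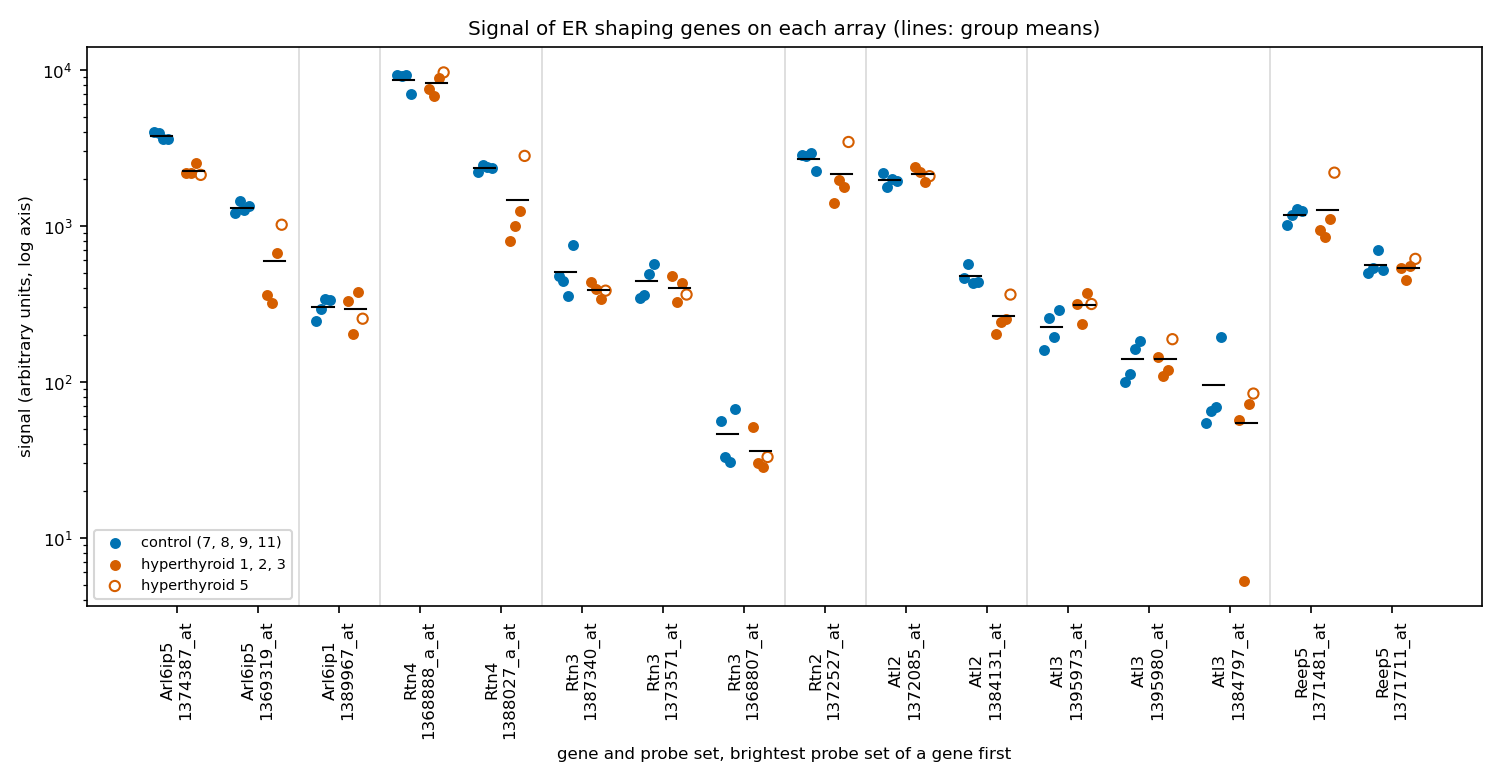
Signal of each of the 16 probe sets (horizontal axis, brightest probe set of a gene first) on each array, on a log axis in arbitrary units; points are arrays and short lines are group means. Both Arl6ip5 probe sets and Atl2 1384131_at show hyperthyroid points wholly below the control points, and the open circle of hyperthyroid 5 lies above the other hyperthyroid points on 1388027_a_at of Rtn4, on Rtn2 and on 1371481_at of Reep5.

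Arl6ip5 belongs to the PRA1 family of small membrane proteins of the endoplasmic reticulum. It is also known as Gtrap3-18 because it binds the neuronal glutamate transporter Slc1a1 and delays its exit from the reticulum. Its brightest probe set, 1374387_at, had signals of 4016, 3946, 3605 and 3596 on control 7, 8, 9 and 11. The same probe set read 2175, 2168, 2511 and 2122 on hyperthyroid 1, 2, 3 and 5. All 4 hyperthyroid arrays lay below all 4 controls, and hyperthyroid 5 was like the others. Means were 2244 ± 180 on hyperthyroid and 3791 ± 222 on control arrays (SD, n = 4 each). The log2 difference was -0.76 ± 0.11 (SE), a level of 0.591 of control, and -0.73 ± 0.11 without hyperthyroid 5. A fit that holds the Gapdh ratio as a covariate (the Gapdh covariate) gave -0.75 ± 0.13, and -0.56 when hyperthyroid 5 was also left out. Over all 21 alternative settings it ran from -0.91 to -0.56.

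The dimmer probe set of Arl6ip5, 1369319_at, was also lower on every hyperthyroid array. It read 1200, 1438, 1263 and 1337 on control 7, 8, 9 and 11, and 363, 319, 666 and 1016 on hyperthyroid 1, 2, 3 and 5. The arrays with the 2 highest Gapdh ratios, hyperthyroid 1 and 2, had the lowest signals, and hyperthyroid 5, with the lowest ratio, lay nearest to the controls. The log2 difference was -1.30 ± 0.31, and -1.62 ± 0.22 without hyperthyroid 5. Under the Gapdh covariate it was -0.67 ± 0.13. From the control mean, the brighter probe set lay at -0.80, -0.80, -0.59 and -0.84 on hyperthyroid 1, 2, 3 and 5, and the dimmer at -1.85, -2.03, -0.97 and -0.36. Both probe sets thus separated the groups, and hyperthyroid 3, 1 and 2 came in the same order, from highest to lowest, on both. Only hyperthyroid 5 changed place: it was the lowest hyperthyroid array on the brighter probe set and the highest on the dimmer. The correlation of their deviations from the group means was 0.114 over 8 arrays, and it was not computed without hyperthyroid 5. Because each group forms a cluster of 4 arrays on this gene, the pooled correlation is not given, and the relation within groups was not tested.

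The promoters of both Arl6ip genes are shown because they share a name and differ in these data: both probe sets of Arl6ip5 were lower in hyperthyroid muscle, while Arl6ip1 overlapped between the groups. They are the 250 bases before the start of the gene in RefSeq (build GRCr8), written 5′ to 3′ on the gene's strand: chr4:131371883-131372132, plus strand, for Arl6ip5 and chr1:181874233-181874482, minus strand, for Arl6ip1. Capitals mark the CCAAT box (CCAAT, or ATTGG on the other strand) and the half-site of thyroid hormone receptors (AGGTCA, or TGACCT).
Arl6ip5: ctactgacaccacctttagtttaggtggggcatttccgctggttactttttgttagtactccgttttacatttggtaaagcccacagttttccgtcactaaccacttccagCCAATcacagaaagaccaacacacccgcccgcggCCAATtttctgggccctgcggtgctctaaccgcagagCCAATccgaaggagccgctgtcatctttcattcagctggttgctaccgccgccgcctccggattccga
Arl6ip1: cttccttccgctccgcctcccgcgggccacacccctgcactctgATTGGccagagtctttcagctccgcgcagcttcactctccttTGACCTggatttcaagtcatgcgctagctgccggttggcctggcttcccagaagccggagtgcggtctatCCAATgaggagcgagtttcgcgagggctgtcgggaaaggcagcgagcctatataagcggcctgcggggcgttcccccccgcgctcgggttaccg
Arl6ip5 has 3 CCAAT matches, whose first bases lie 139, 105 and 68 bases before the start, and no half-site in this window. At least 3 CCAAT matches were found in 2.51% of 33356 promoter windows of this length, and at least 1 in 34%. Arl6ip1 has 2 CCAAT matches, 206 and 94 bases before the start, and 1 half-site, 164 bases before it. The half-site letters were found in 14.1% of the windows. The endoplasmic reticulum stress element, searched on both strands as CCAAT and CCACG with any 9 bases between them, so that it overlaps the CCAAT box, was in 0.066% of windows and in no member's. The table held 7 of the 8 members, and Rtn4 was not among them. A match of letters is a description, not a site of binding.

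Arl6ip1 is a hairpin protein of tubules, unrelated in sequence family to Arl6ip5 despite its name. Its single probe set, 1389967_at, read 243, 293, 340 and 336 on control 7, 8, 9 and 11, and 329, 203, 378 and 254 on hyperthyroid 1, 2, 3 and 5. Both the highest and the lowest signal were on hyperthyroid arrays, so the groups overlapped. A log2 difference of -0.09 ± 0.21 was found, and -0.03 ± 0.22 without hyperthyroid 5. It changed sign in 5 of 21 alternative settings, some of which cannot change it.

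Among the reticulons, Rtn4, known as Nogo for the isoform of myelin that blocks axon growth, had the widest gap between the log2 differences of its probe sets. The brightest, 1368888_a_at, read 9224, 9195, 9305 and 6955 on control 7, 8, 9 and 11, and 7509, 6852, 8853 and 9636 on hyperthyroid 1, 2, 3 and 5. The groups overlapped, with control 11 apart from the other 3 controls. Its log2 difference was -0.08 ± 0.15, -0.16 ± 0.14 without hyperthyroid 5 and 0.02 after quantile normalization. On the other probe set, 1388027_a_at, the controls were tightly placed at 2227, 2451, 2397 and 2364, and hyperthyroid 1, 2, 3 and 5 read 800, 998, 1247 and 2808. Hyperthyroid 1, 2 and 3 were below every control and hyperthyroid 5 was above every control. The log2 difference was -0.87 ± 0.31 on all 8 arrays and -1.24 ± 0.15 without hyperthyroid 5. Under the Gapdh covariate it was -0.28 ± 0.18 on all 8 arrays, and -0.82 when hyperthyroid 5 was also left out. The transcripts that each Rtn4 probe set reads were not analysed here.

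Rtn2 is a reticulon rich in muscle and nerve. Its probe set, 1372527_at, read 2837, 2805, 2912 and 2244 on control 7, 8, 9 and 11, and 1408, 1955, 1772 and 3449 on hyperthyroid 1, 2, 3 and 5. As on the dimmer Rtn4 probe set, hyperthyroid 1, 2 and 3 lay below every control and hyperthyroid 5 above every control. This gave a log2 difference of -0.41 ± 0.23, and -0.66 ± 0.14 without hyperthyroid 5. Under the Gapdh covariate it was -0.08 ± 0.21, and -0.68 when hyperthyroid 5 was also left out.

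Rtn3, whose long isoform acts as a receptor for the autophagy of tubules, had 3 probe sets, and all overlapped between the groups. The brightest, 1387340_at, read 476, 444, 353 and 757 on control 7, 8, 9 and 11, and 435, 393, 340 and 384 on hyperthyroid 1, 2, 3 and 5. Control 11 was the highest array, and the log2 difference was -0.33 ± 0.22 with it and -0.12 without it. Leaving out hyperthyroid 5 gave -0.33 ± 0.23. The probe set 1373571_at ran from 343 to 573 in controls and from 326 to 474 in hyperthyroid arrays (-0.13 ± 0.20, and -0.09 ± 0.21 without hyperthyroid 5). The dim 1368807_at ran from 30.6 to 66.9 and from 28.5 to 51.5 (-0.34 ± 0.46, and -0.31 ± 0.52 without hyperthyroid 5).

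The atlastin Atl2 also had probe sets that disagreed. On the brightest, 1372085_at, controls 7, 8, 9 and 11 read 2186, 1775, 1985 and 1942, and hyperthyroid 1, 2, 3 and 5 read 2386, 2224, 1909 and 2081. The groups overlapped, and the log2 difference was 0.12 ± 0.12 (0.14 ± 0.12 without hyperthyroid 5), with 0.00 under median centring and -0.04 when hyperthyroid 5 was also left out. On 1384131_at the controls read 464, 568, 429 and 433, and the hyperthyroid arrays 201, 240, 251 and 362. Every hyperthyroid array was below every control, with hyperthyroid 5 the nearest to them. Hyperthyroid minus control was -0.87 ± 0.20 on the log2 scale, a level of 0.547 of control, and -1.03 ± 0.17 without hyperthyroid 5. It was -0.62 ± 0.19 under the Gapdh covariate.

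The brightest probe set of Atl3, 1395973_at, was the highest of all members relative to control. It read 161, 256, 195 and 290 on control 7, 8, 9 and 11, and 317, 236, 371 and 315 on hyperthyroid 1, 2, 3 and 5. Of the hyperthyroid arrays 3 lay above every control, and hyperthyroid 2 lay among them. The log2 difference was 0.48 ± 0.22, 0.46 ± 0.24 without hyperthyroid 5 and 0.65 ± 0.25 under the Gapdh covariate. A second probe set, 1395980_at, stood at 0.01 ± 0.26, with controls from 99.3 to 183 and hyperthyroid arrays from 108 to 187, and its sign turned without hyperthyroid 5 (-0.14 ± 0.26), with quantile normalization and with median centring. The dimmest, 1384797_at, stood at -1.18 ± 0.80, at -1.58 ± 0.80 without hyperthyroid 5, at -0.25 without hyperthyroid 2 and at 0.96 under the Gapdh covariate without hyperthyroid 5. Hyperthyroid 2 decided much of the value: its signal of 5.31 lay under the filter level of 28.2. In the rat gene table Atl3 and Rtn3 are neighbours, with 1 long noncoding RNA locus between them. Their brightest probe sets pointed in opposite directions in all 21 alternative settings, some of which cannot change a log2 difference.

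Reep5 is a hairpin protein that bends tubules and is abundant in muscle. Its brightest probe set, 1371481_at, read 1010, 1178, 1279 and 1246 on control 7, 8, 9 and 11, and 943, 846, 1098 and 2193 on hyperthyroid 1, 2, 3 and 5. Hyperthyroid 5 was far above all other arrays, and the rest overlapped. The log2 difference of 0.01 ± 0.25 became -0.29 ± 0.14 without hyperthyroid 5 and was 0.47 ± 0.16 under the Gapdh covariate, and its sign turned with that array left out. With median centring it was -0.11 on all 8 arrays. On the other probe set, 1371711_at, hyperthyroid 5 read 614, inside the control range of 495 to 702, and the difference was -0.06 ± 0.16, or -0.13 ± 0.16 without hyperthyroid 5.

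**Figure D2:**
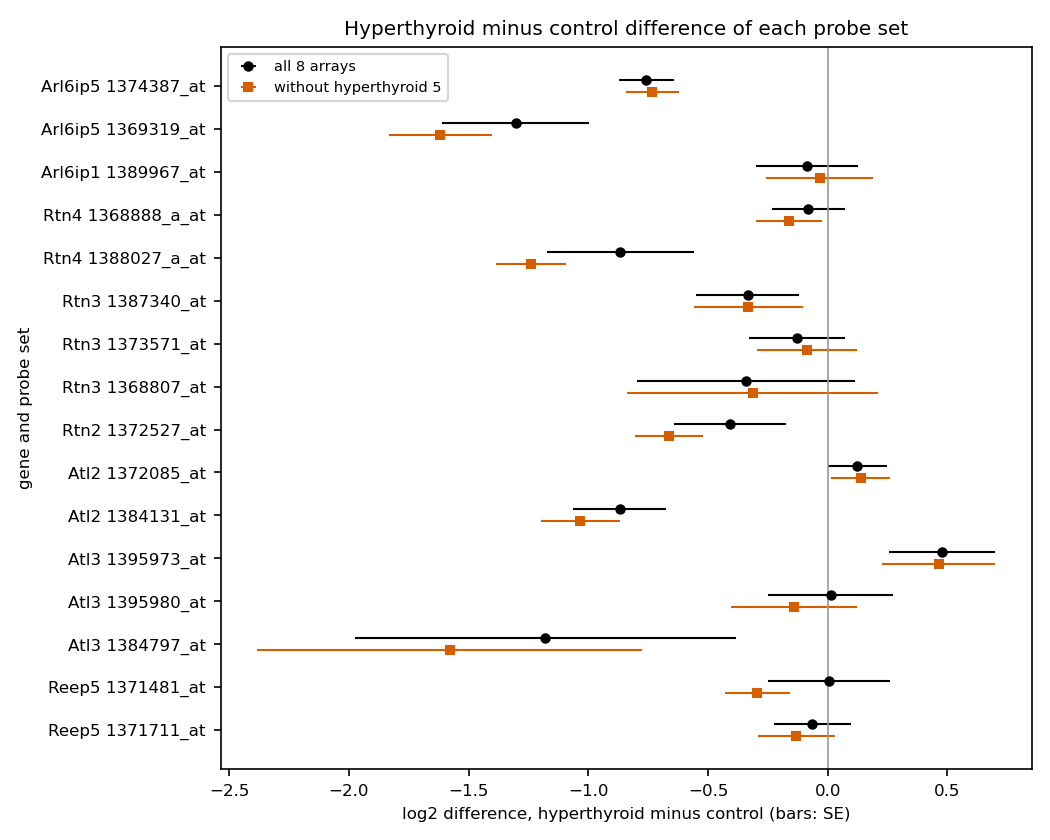
Log2 difference, hyperthyroid minus control, of each probe set (points) with its standard error (bars), from limma on all 8 arrays (black circles) and without hyperthyroid 5 (orange squares). The brightest probe set of Arl6ip5 hardly moves between the fits (-0.76 and -0.73), while 1388027_a_at of Rtn4 goes from -0.87 to -1.24 and 1371481_at of Reep5 from 0.01 to -0.29.

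Probe sets of 1 gene could be compared for 6 of the members, in 8 pairs of the brightest with another. The other probe set had the lower log2 difference in 7 of 8 pairs. The share of all pairs with a gap below 0 was not computed, so this count is a description and no trait of the members. Pairs of Rtn3, and likewise those of Atl3, share their brightest probe set and are not independent. That gap was -1.66 ± 0.86 for Atl3 1384797_at, with its dim signals, and -0.47 ± 0.26 for Atl3 1395980_at. It was -0.99 ± 0.26 (log2 ± SE) for Atl2, -0.79 ± 0.33 for Rtn4 and -0.55 ± 0.39 for Arl6ip5, and -0.07 ± 0.25 for Reep5. The Rtn3 pairs stood at 0.21 ± 0.26 for 1373571_at, the gap above 0, and -0.01 ± 0.20 for 1368807_at. Over 3410 such pairs of 2581 genes, the median gap was -0.06, and its median size regardless of sign was 0.37. The gap kept the groups apart, lower in hyperthyroid arrays, for 1 of the 8 pairs, that of Atl2, beside 4.63% of all pairs, and in the higher direction for 0, beside 3.52%. Without hyperthyroid 5 the gap was lower and apart for 4 pairs, of Arl6ip5, Rtn4, Atl2 and Atl3 (1384797_at), beside 10.1%, and higher for 0, beside 5.98%. In that fit 5 of 8 gaps lay below 0. Brightness itself depends on the probes and does not rank transcripts.

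**Figure D3:**
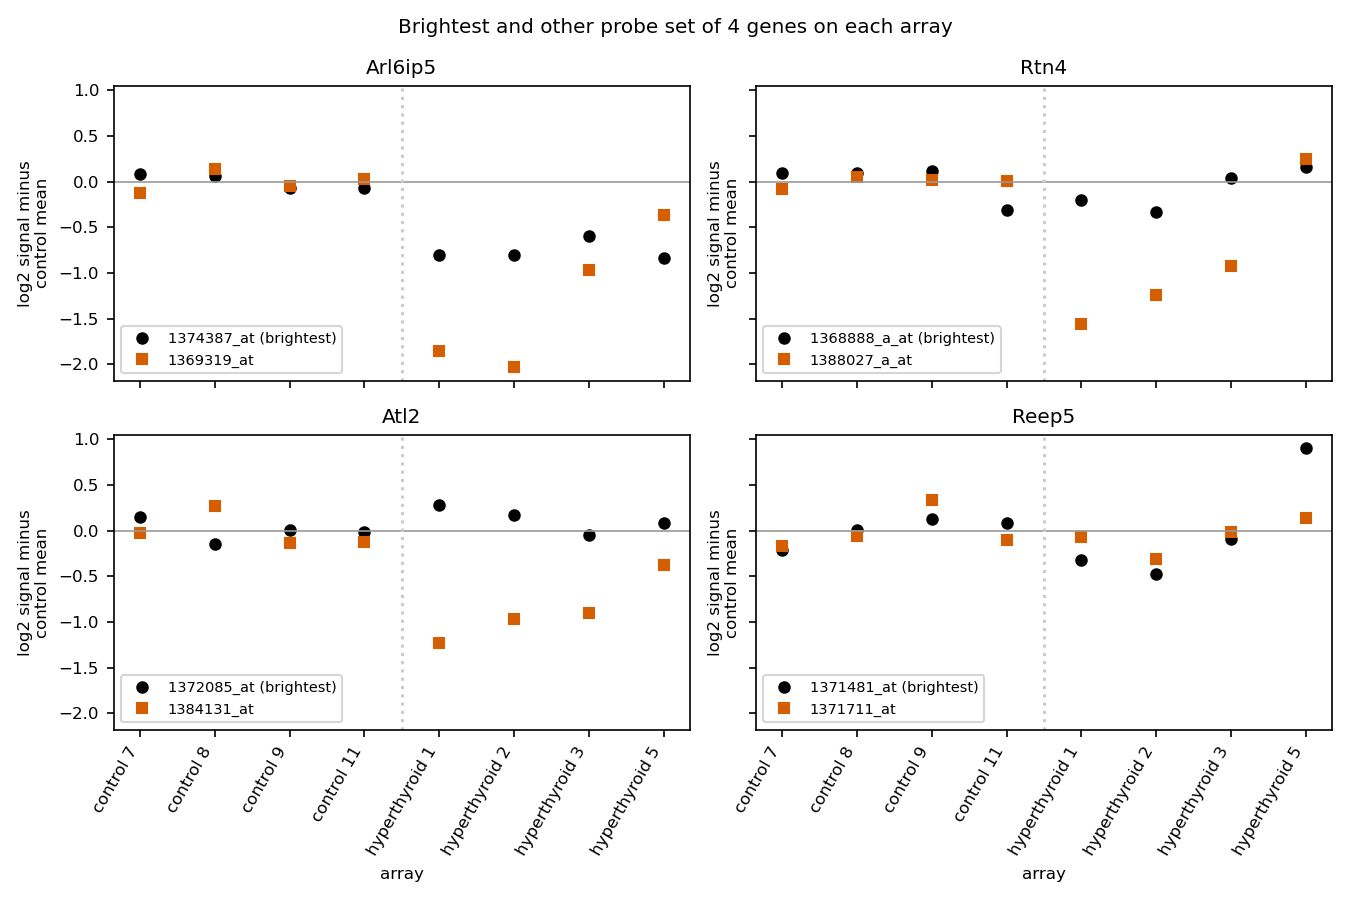
Log2 signal minus the mean of the 4 controls (vertical axis) on each array (horizontal axis) for the brightest probe set (black circles) and the other (orange squares) of Arl6ip5, Rtn4, Atl2 and Reep5. The orange squares of Rtn4 and Atl2 lie far below the black circles on hyperthyroid 1, 2 and 3. On hyperthyroid 5 the other probe set lies above the brightest in Arl6ip5 (-0.36 and -0.84) and in Rtn4 (0.25 and 0.16). It lies below the brightest there in Atl2 (-0.38 and 0.08) and in Reep5 (0.14 and 0.90).

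Whether probe sets of a gene rose and sank together over the arrays was tested by exact permutation of the pairings, two-sided, adjusted over the 8 pairs, without use of the group labels. Only the Rtn3 pair 1387340_at and 1368807_at passed, with Pearson r = 0.851 over 8 arrays (exact p = 0.00156, adjusted p = 0.0125) and Spearman rho = 0.833 (exact p = 0.0154, adjusted p = 0.123). Without control 11 and hyperthyroid 3, the arrays farthest from the median, r was 0.756 (exact p = 0.106). The remaining Rtn3 probe set, 1373571_at, had r = 0.435 with the brightest (exact p = 0.296, adjusted p = 0.394; rho = -0.02, exact p = 0.977), and -0.378 without the same 2 arrays. The Rtn4 pair stood at r = 0.585 (exact p = 0.128, adjusted p = 0.205; rho = 0.714, exact p = 0.0576), and at 0.938 without control 11 and hyperthyroid 2. Reep5 stood at 0.639 (exact p = 0.102, adjusted p = 0.204; rho = 0.762, exact p = 0.0368), and at 0.558 without hyperthyroid 2 and 5. The Atl2 pair had r = -0.648 (exact p = 0.0868, adjusted p = 0.204; rho = -0.619, exact p = 0.115), which was -0.07 without control 8 and hyperthyroid 1. The pairs of Atl3, with 1395980_at and 1384797_at, had r = 0.372 and 0.241 (exact p = 0.359 and 0.573, adjusted p = 0.411 and 0.573). Their rho was 0.452 and 0.476 (exact p = 0.267 and 0.243), and r was 0.332 and 0.578 without control 7 and 9. Shifts between the groups enter all these pooled values. The correlation of deviations from the group means, not tested, was 0.468 and 0.735 for these Atl3 pairs. It was 0.826 for Rtn3 1368807_at, 0.377 for Rtn3 1373571_at, 0.608 for Rtn4, 0.650 for Reep5 and -0.531 for Atl2. The Atl3 value of 0.735 includes hyperthyroid 2, which read 5.31 on 1384797_at.

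**Figure D4:**
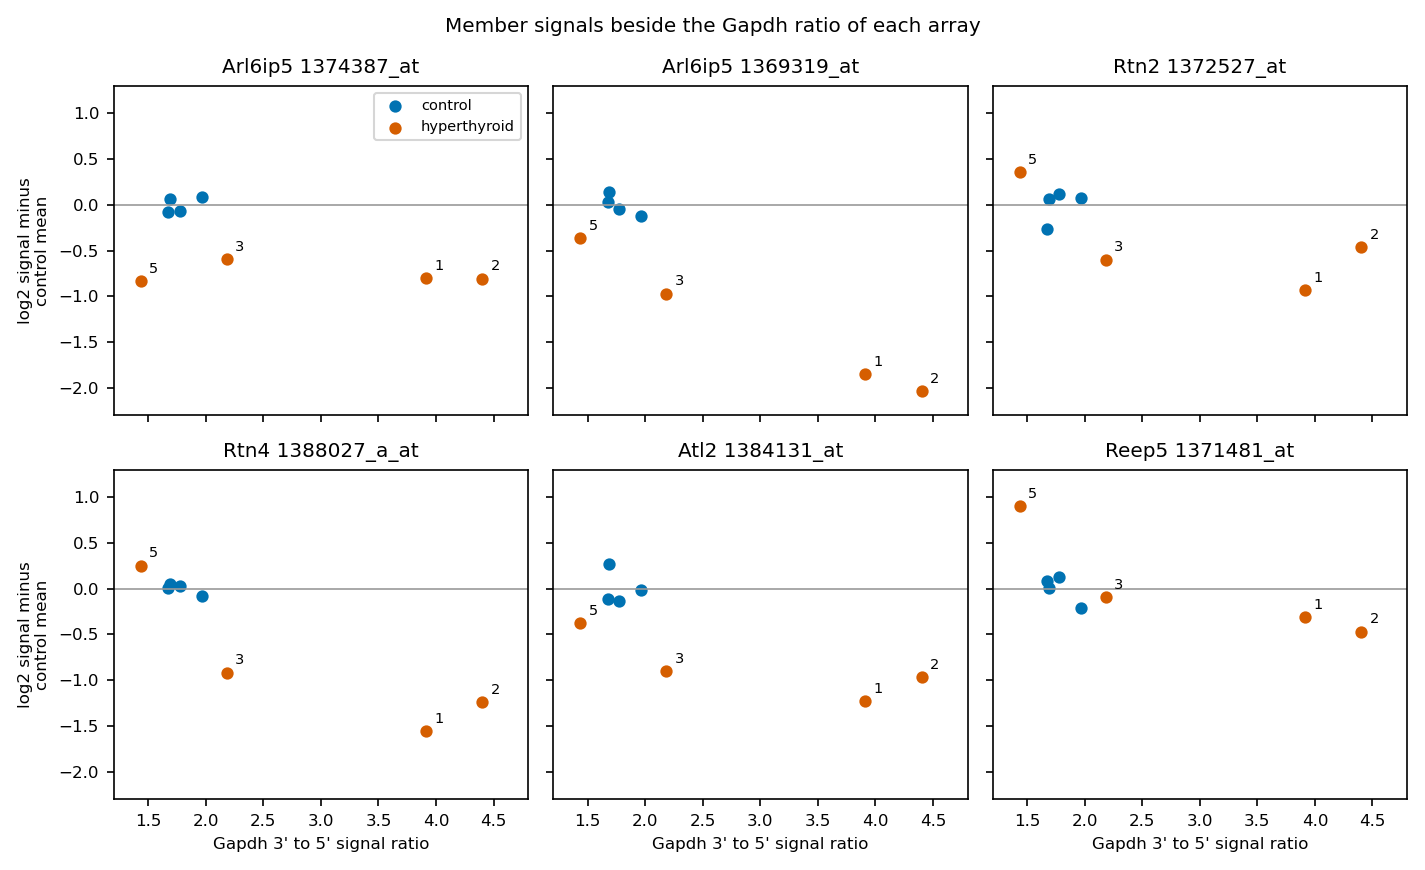
Log2 signal minus the control mean (vertical axis) against the 3′ to 5′ signal ratio of Gapdh (horizontal axis) for 6 probe sets, with 1 point per array and the hyperthyroid arrays numbered. On 1369319_at of Arl6ip5 the points of hyperthyroid 5, 3, 1 and 2 lie at -0.36, -0.97, -1.85 and -2.03 at ratios of 1.44, 2.18, 3.91 and 4.40, while on 1374387_at they lie between -0.84 and -0.59 at every ratio.

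Hyperthyroid 1 and 2, with the highest Gapdh ratios, were the lowest arrays on the dimmer probe sets of Arl6ip5, Rtn4 and Atl2. This was not confined to dimmer probe sets: they were also the lowest on the brightest of Reep5, 1371481_at, at 943 and 846. On the brightest of Atl2, 1372085_at, they were the highest, at 2386 and 2224. The covariate changed the size of the difference by more than 1.5 times on 8 of the 16 probe sets: Arl6ip5 1369319_at, Rtn4 1388027_a_at, Rtn2, Arl6ip1, Atl2 1372085_at, Atl3 1395980_at, Atl3 1384797_at (-1.18 to -0.06) and Reep5 1371481_at (0.01 to 0.47). Several of these began near 0: Arl6ip1 went from -0.09 to 0.01, Atl2 1372085_at from 0.12 to 0.04 and Atl3 1395980_at from 0.01 to 0.24. The differences of Arl6ip5 1374387_at and Atl2 1384131_at changed by less than that. On 1368888_a_at of Rtn4 and 1371711_at of Reep5 the sign turned, from -0.08 to 0.08 and from -0.06 to 0.07. The ratio lay above every control on 3 of the 4 hyperthyroid arrays, and the part of RNA length in these values was not tested.

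By Pearson correlation over the 8 arrays with 10445 other genes, Ndufb10 (r = 0.992), Mdh2 (0.978) and Sdhb (0.978) were most like the brightest probe set of Arl6ip5. For Arl6ip1 they were Cabcoco1 (0.966), Tmem14a (0.956) and Dync1i1 (0.956). Calr (0.959), Necap2 (0.925) and Far1 (0.920) came first for Rtn3. For Rtn4 they were Ces1d (0.978), Trarg1 (0.974) and Pskh1 (0.973), for Rtn2 Sem1 (0.977), Cd55 (0.976) and Ubac1 (0.973), and for Reep5 Rps9 (0.984), Pcolce (0.968) and Srebf1 (0.966). The last of these fell to 0.851 without hyperthyroid 5. For Atl2 they were Brat1 (0.954), Timm8a1 (0.939) and Tmem135 (0.930), and for Atl3 Cdc42ep5 (0.959), Senp3 (0.956) and Eef1akmt4 (0.948). These are the highest of many values over 8 arrays and are a description only. For Arl6ip5 the groups form separate clusters, so a gene that differs between the groups can have a high pooled r with it, and these 3 values are no measure of likeness within a group.

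Other genes of the endoplasmic reticulum, from 4 lists, were tested in the same limma fit, and 0 passed an adjusted p of 0.05 on all 8 arrays or without hyperthyroid 5. The lists were drawn up by function, but with earlier results of these data known. Among 28 tested of 31 other membrane shaping genes, 4 were lower and 1 higher at an unadjusted p under 0.05, with 18 below 0 and a median log2 difference of -0.20, which was -0.08 without hyperthyroid 5. Over all 10446 genes the median was 0.01 (0.02 without hyperthyroid 5), 48.8% lay below 0, and 5.83% were lower and 6.34% higher at that p. Without hyperthyroid 5, 13 of all genes passed the adjusted threshold (0.124%), 48.1% lay below 0, and 8.24% were lower and 7.85% higher at an unadjusted p, where the other shaping genes had 5 lower and 1 higher. Rrbp1, which marks ribosome-bearing sheets, read 280 ± 20.6 on hyperthyroid and 406 ± 81.7 on control arrays (SD, n = 4 each; -0.52 ± 0.17, adjusted p = 0.326). Retreg1, a reticulon-like receptor for autophagy of the reticulum, stood at 2794 ± 623 and 3886 ± 243 (-0.50 ± 0.17, adjusted p = 0.331). Reep1, a relative of Reep5, stood at 343 ± 79.7 and 244 ± 26.7 (0.47 ± 0.19, adjusted p = 0.396), and at 0.20 ± 0.18 under the Gapdh covariate.

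Of the PRA1 family and partners of the members, 10 of 14 genes were tested, with 3 lower and 0 higher at an unadjusted p under 0.05 and a median of -0.22. With 8 below and 2 above 0 on all arrays, the list had 5 and 5 without hyperthyroid 5, with 2 lower at that p and a median of -0.12. Rabac1, a PRA1 relative of Arl6ip5, stood at 514 ± 53.7 on hyperthyroid and 684 ± 101 on control arrays (-0.41 ± 0.15, adjusted p = 0.352). The membrane chaperones Bcap31 and Bcap29 stood at -0.42 ± 0.15 (adjusted p = 0.332) and -0.30 ± 0.13 (adjusted p = 0.417). The transporter Slc1a1, named for its known binding to Arl6ip5, stood at -0.14 ± 0.39 (adjusted p = 0.912).

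Among 26 tested of 27 chaperone and unfolded protein response genes, 2 were lower and 0 higher at that p, with 15 below and 11 above 0 and a median of -0.10. Without hyperthyroid 5 the median turned to 0.02, with 11 below and 15 above 0, while 5 were lower and 0 higher at that p. The disulfide isomerase Pdia4 stood at 104 ± 34.9 and 199 ± 46.9 (-0.97 ± 0.26, adjusted p = 0.269), the chaperone Hsp90b1 at -0.53 ± 0.19 (adjusted p = 0.341) and P4hb at -0.28 ± 0.14 (adjusted p = 0.459). Of 30 translocon and targeting genes, all tested, 5 were lower and 2 higher, with a median of -0.07. The median was -0.13 without hyperthyroid 5, with 7 lower and 3 higher, and 0.04 under the Gapdh covariate, with 14 below and 16 above 0. The other lists kept medians below 0 under this covariate. These were -0.14 for the other shaping genes (18 below 0), -0.28 for the PRA1 list (9 below 0) and -0.13 for the chaperone list (19 below 0). Dad1, a subunit of the oligosaccharyltransferase, read 744, 884, 1035 and 1003 on control 7, 8, 9 and 11, and 514, 572, 615 and 659 on hyperthyroid 1, 2, 3 and 5. Its groups did not overlap (-0.63 ± 0.15, adjusted p = 0.231, and 0.0868 without hyperthyroid 5). The signal peptidase subunits Spcs3 and Sec11c stood at -0.44 ± 0.12 and -0.65 ± 0.21 (adjusted p = 0.275 and 0.323). Without hyperthyroid 5 the genes named by the smallest p of each list kept their direction, from -0.93 for Pdia4 to 0.60 for Reep1, and Slc1a1 turned to 0.02 ± 0.42. All adjusted p-values are from limma.

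**Figure D5:**
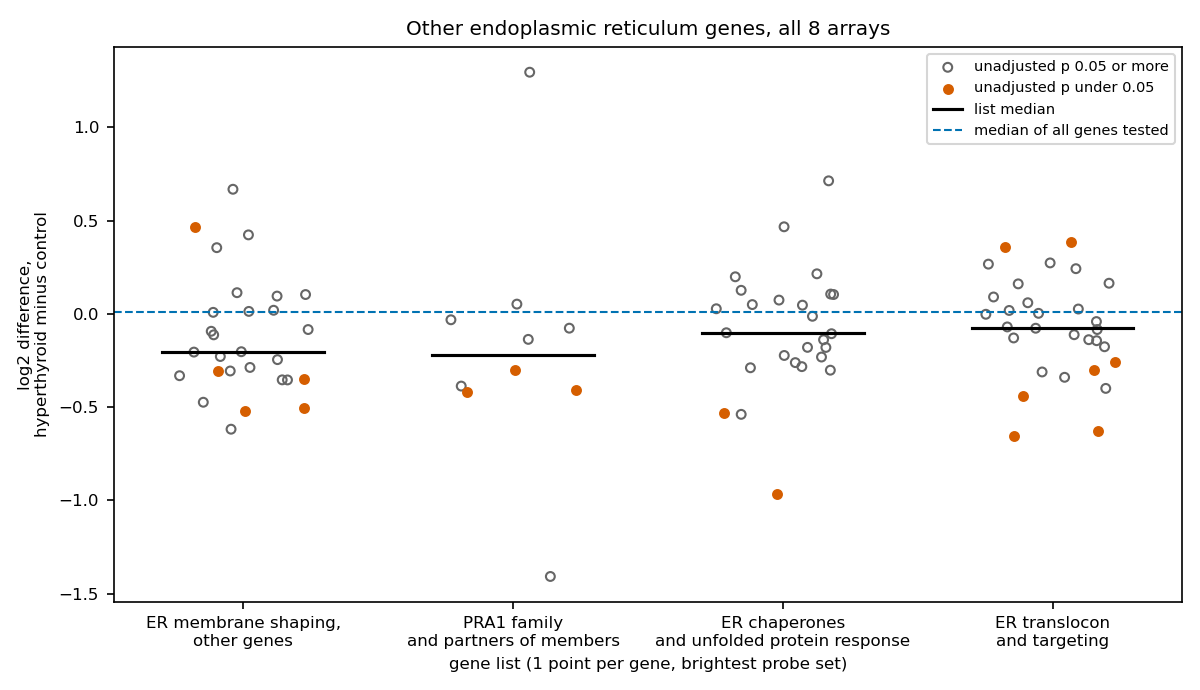
Log2 difference, hyperthyroid minus control, on all 8 arrays for genes of the 4 other lists (1 point per gene, brightest probe set); filled points have an unadjusted limma p under 0.05, short lines are list medians and the dashed line is the median of all genes tested. The list medians run from -0.22 to -0.07, beside 0.01 over all genes, and without hyperthyroid 5 from -0.13 to 0.02. Under the Gapdh covariate they run from -0.28 for the PRA1 list to 0.04 for the translocon list, the only one above 0. In the plot, the lowest filled point is Pdia4 at -0.97.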

How the data were processed

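The authors deposited linear signal intensities for every probe set, and GCOS, the software of the array's maker, is named per the submitters' processing notes without a version. Filters and detection calls are not stated in those notes. The deposited table was already scaled: the mean after trimming 2% of values at each end was 150.05 or 150.06 on each array, with medians from 47.8 to 58.5. Of 31099 probe sets, 57 control probe sets were not tested. Among the others, 20826 had 1 gene symbol, 436 several and 9780 none in the platform annotation. Values were set to at least 1 and taken to log2. The upper 60% of probe sets by mean log2 signal were kept (18625, above a signal of 28.2), and a gene was represented by its brightest probe set (10446 genes).

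The hyperthyroid and control arrays entered a linear model in limma 3.58.1 (R 4.3.3; eBayes with trend, two-sided p-values, Benjamini-Hochberg over all probe sets tested, threshold 0.05), and the fit was tested on simulated data. The number of arrays limits the precision. The replicates are separate rats, and no batch is named in the labels. The members and lists were chosen with earlier results of these data known. Named genes are all member probe sets, the 3 smallest p-values of each list and the 3 genes most like each member; Slc1a1 was added for its known binding to Arl6ip5. Alternatives were other scalings, filters and eBayes settings, 32 added before log2, array weights, the Gapdh ratio as a covariate, a gene's mean over its probe sets, Spearman correlation and arrays left out.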

Additional observations from a re-analysis of the deposited data

Results flagged for a closer look

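In 4 of the 32 groups of 4 arrays (16 probe sets, 2 groups each), 1 array stood apart from the other 3 by Dixon's test on log2 signals, where chance gives about 1 in 20. On 1374387_at of Arl6ip5 hyperthyroid 3 was the highest of its group, at 2511. On 1368888_a_at of Rtn4 control 11 was the lowest of its group, at 6955, and on 1372527_at of Rtn2 the same array was the lowest, at 2244. On 1384797_at of Atl3 hyperthyroid 2 was the lowest, at 5.31.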

How the results depend on the processing

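Of the 16 member probe sets, 8 kept the sign of their log2 difference in each of the 21 alternative settings in which they had a value, among them both Arl6ip5 probe sets, Rtn4 1388027_a_at, Rtn2 and Atl2 1384131_at. The other filters and eBayes settings cannot change a log2 difference, so the sign was fixed in advance in those. The 0 calls at an adjusted p under 0.05 became 6 with array weights, 8 with the Gapdh ratio as a covariate and 9 without hyperthyroid 2 and 5. Leaving out 1 array gave 0 to 29 probe sets, 29 being without hyperthyroid 5. Without that array, alternatives added after seeing the data gave 36 with quantile normalization, 315 with median centring and 1 with the Gapdh covariate. Members below 0 numbered 9 to 14 when 1 array was left out. They numbered 9 with the Gapdh covariate, with or without hyperthyroid 5. With median centring they numbered 14 on all 8 arrays and 15 without hyperthyroid 5. The 17 other reticulum genes at an unadjusted p under 0.05 became 10 without a trend in eBayes, 10 to 23 when 1 array was left out (11 without control 8, 11 without control 9, 10 without control 11), and, without hyperthyroid 5, 33 with median centring and 4 with the Gapdh covariate. The 1 probe set pair past the threshold became 0 with Spearman correlation and 2 without hyperthyroid 5. The pair added was that of Arl6ip5, whose groups form separate clusters, so its pooled correlation is no measure of agreement within a group. Signals near the filter level of 28.2 limit 1384797_at of Atl3 and 1368807_at of Rtn3. No paired analysis was possible because the groups share no replicate number.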
